A study of Arabidopsis thaliana with 8 samples.

Results

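Plates TA01 to TA20 form the opening stretch of an Arabidopsis thaliana tiling array, and 1864 of the 21295 probes with values lie on them. A probe was a member if its ID was TA, a plate number between 01 and 20, a row from A to H and a well number, with a value in every column. These plates carry 1912 IDs, of which 48 had no value. The end of the stretch was chosen by the measured ratios, since plate TA21 opens the first long block of low values in ID order. Levels of the stretch are therefore a description, and no test of them against the remaining probes is given. The IDs hold no gene or position: 0 of the 1912 occur in the gene table of the species, so the stretch is named by its plates and no probe sequence is shown.

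The series compared chromatin immunoprecipitated with an antibody to dimethylated lysine 4 of histone H3 (H3K4me2; IP, Upstate 07-030) with input DNA. Both came from whole seedlings of the ColxC24 cross at an age of 10 days, grown in liquid medium in long days with no treatment. The strain tag of all samples reads c24, the source names read ColxC24, and the names were followed. Each of 4 replicates, I to IV, was hybridised on 2 arrays with the dyes of IP and input exchanged. Whole seedlings mix many cell types, and the labels do not say whether the replicates came from separate cultures, so the spread given here may be technical.

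H3K4me2 is a mark of nucleosomes over genes, set by SET-domain methyltransferases. In Arabidopsis it lies mainly in the transcribed part and around the promoters of genes, in active and in many silent ones, and is scarce over transposons and in the compact chromatin around centromeres. An immunoprecipitation compared with input on tiles therefore usually gives an alternation of genic and intergenic segments in euchromatin.

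Each value is a log ratio of IP and input as the authors deposited it, minus the median probe of its replicate. The scale was taken as log2, and neither the base nor the direction of the ratio is given in the sources used here. "Above" and "below" follow the deposited sign and would change places if it were turned. The columns of a dye swap differed at 0 probes, so each swap gave 1 value and n = 4. Over the 1864 probes the Pearson correlation across probes reached 0.99 for I with III and 0.99 for II with IV, against 0.94 to 0.95 for the other pairs. The replicates thus fell into the pairs I with III and II with IV, which no label names.

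The stretch as a whole lay close to the median probe of the array. Its medians in replicates I to IV were 0.16, 0.12, 0.09 and 0.10, on average 0.12 ± 0.03 (SD, n = 4). The interquartile range of its probes ran from -0.79 to 0.89, with the 5th percentile at -3.01 and the 95th at 1.60. The tails were thus unequal, and the mean over probes was -0.10. In limma's test against the median probe (Benjamini-Hochberg over 21295 probes, threshold 0.05), 837 members, or 44.9%, were called above, beside 42.1% of all probes. Members called below numbered 703, or 37.7%, beside 42.3% of all probes. With a distance over 0.5 required (limma's treat), 552 members (29.6%) were called above and 475 (25.5%) below, beside 28.1% and 30.6% of all probes. The same contrast placed the end of the stretch, and nothing is read from these shares. With 0 at the deposited value of each column, 191 and 660 members passed the same treat test, so the balance of both sides depends on the place of 0.

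Levels changed from plate to plate by more than the replicates differed. Of 20 plates, 9 had a median above 0 in all 4 replicates, 5 below 0 in all 4, and 6 were mixed. TA07 was the highest, with medians of 0.78, 0.90, 0.68 and 0.92 in replicates I to IV, and 48 of its 94 probes were called above by over 0.5. TA15 followed at 0.67 ± 0.04 (SD, n = 4), TA05 at 0.56 ± 0.09 and TA03 at 0.52 ± 0.15. These 4 plates lay above 0 in every replicate and had few low probes, between 5 and 10 called below by over 0.5. TA08 was the lowest, with medians of -0.67, -0.83, -0.82 and -0.92, and 50 of its 94 probes were called below. It stands directly after TA07, so the highest and the lowest plate are neighbours. TA01 and TA18 were the next lowest, at -0.48 ± 0.06 and -0.44 ± 0.07.

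**Figure D1:**
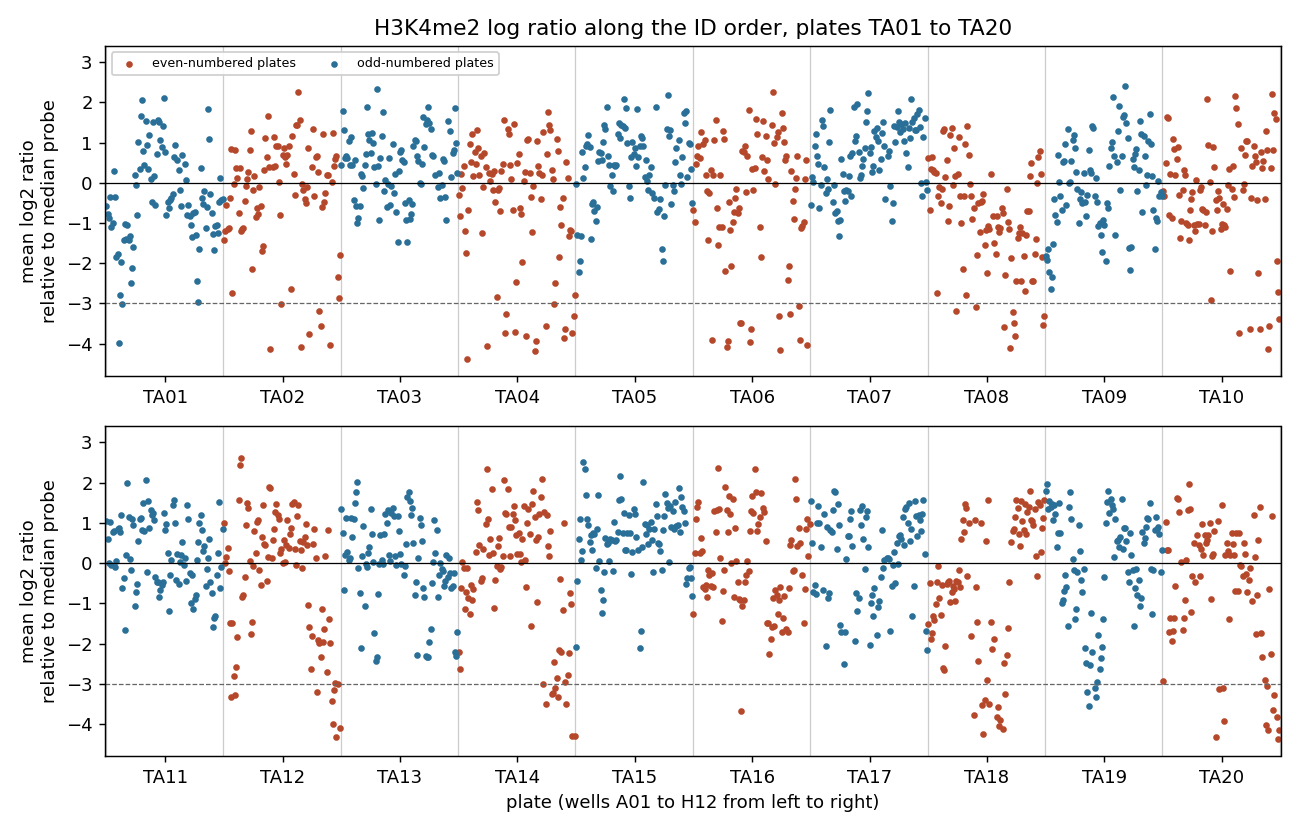
Mean log2 ratio of IP and input over 4 replicates for 1864 probes, relative to the median probe (solid line), in order of plate and well. Even-numbered plates are in red and odd-numbered plates in blue; 90 of the 96 probes under -3 (dashed line) are red.

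**Figure D2:**
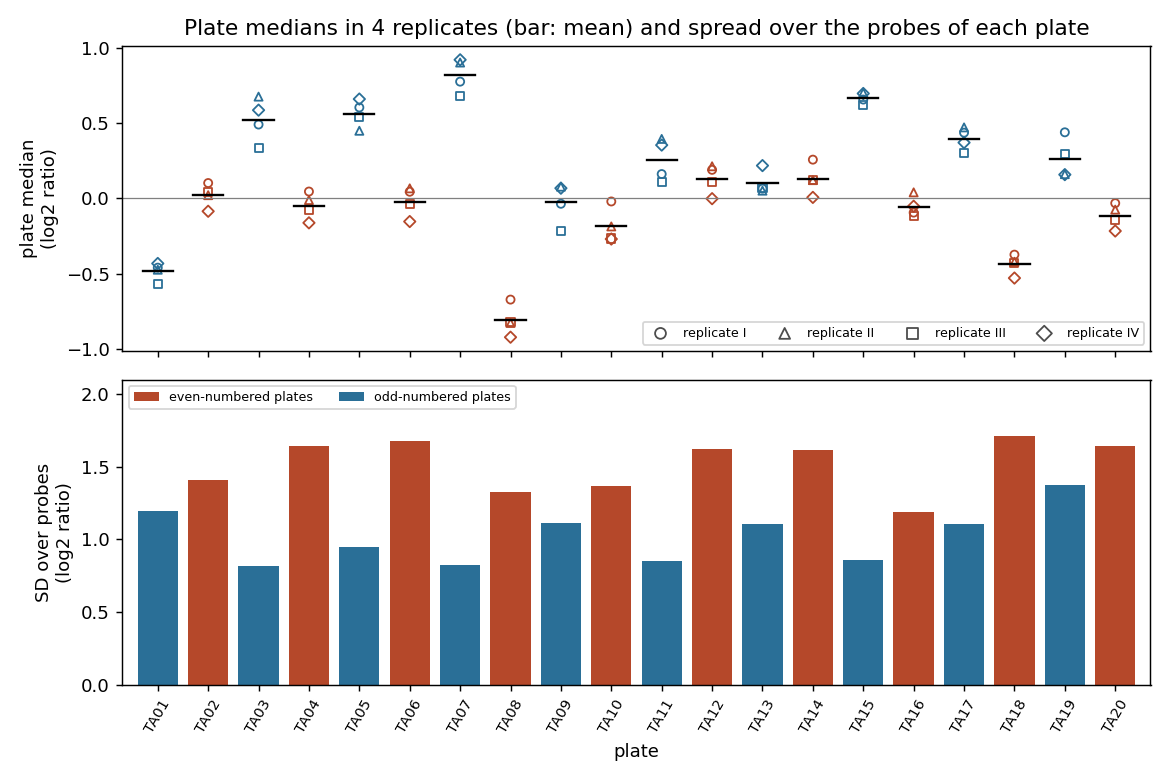
Median log2 ratio of each plate in replicates I to IV (upper panel, symbols; bar, mean of 4) and SD of the mean ratio over the probes of the plate (lower panel). TA07 has the highest and TA08 the lowest median, and each even-numbered plate has a larger SD than the odd-numbered plate before it.

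High probes stood in short groups of neighbouring wells. The highest was TA12B03, with 2.80, 2.45, 2.53 and 2.62 in replicates I to IV, a mean of 2.60 ± 0.15 (SD, n = 4). Its neighbour TA12B02 followed 2 places down, with 2.66, 2.59, 2.39 and 2.13. TA15A07, the second highest, had 2.70, 2.41, 2.53 and 2.37, and its neighbour TA15A08 had 2.49, 2.11, 2.54 and 2.18. In both pairs every replicate was above 2, and the order of the wells within a pair was not the same in all replicates. The highest probe of every plate was above 1 in each replicate, from 1.42 ± 0.07 for TA08C09 on the lowest plate to TA12B03. A mean over 2 was reached by 28 of 1864 members, beside 75 of 3332 probes on plates TA64 to TA99 and 224 of 9458 on the TB plates. The largest values of the array were elsewhere: the maximum was 2.60 here and 4.82 on TA64 to TA99.

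Consecutive probes called above by over 0.5 formed 246 runs with a mean length of 2.24 probes, and 22 runs had 5 or more. The mean length was 2.20 on TA64 to TA99 and 2.64 on the TB plates. The longest, TA15G06 to TA15H06, had 13 probes with run means of 1.15, 1.31, 1.16 and 1.26 in replicates I to IV. The runs TA07F09 to TA07G07 and TA07G09 to TA07H06 had 11 and 10 probes, at 1.31 ± 0.16 and 1.52 ± 0.13 (SD, n = 4), and well TA07G08, at 0.38 ± 0.17, alone parts them. TA18H11 to TA19A09, with 11 probes at 1.45 ± 0.16, crosses the border of 2 plates without a break. Of the 22 long high runs, 5 began on even-numbered plates and 17 on odd-numbered ones. High runs of any length that began there held 224 and 328 probes, of which 14.7% and 36.0% were in long runs.

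Probes called below by over 0.5 formed 207 runs with a mean length of 2.29 probes, and 24 had 5 or more. Of these 24, 16 began on even-numbered plates and 8 on odd-numbered ones. Low runs of any length that began there held 318 and 157 probes, of which 35.2% and 37.6% were in long runs. The mean length of low runs was 2.22 on TA64 to TA99 and 1.89 on the TB plates. TA08F06 to TA08G11 was the longest low run of the stretch, 18 probes with run means of -1.88, -2.06, -1.85 and -2.15. TA01A09 to TA01B11 had 15 probes at -1.95 ± 0.07 (SD, n = 4), close to the start of the ID order. TA08H10 to TA09A07 had 10 probes at -2.28 ± 0.12 and, like the high run above, passes from one plate to the next. On TA19, the run TA19D05 to TA19D12 held 8 probes at -2.46 ± 0.24. In rows of 12 wells, 7 of 160 rows had a median above 1 in all 4 replicates and 17 a median below -1.

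The deepest values were not spread evenly over the plates. A mean ratio under -3 was found at 96 members, and 90 of them (93.8%) were on even-numbered plates. Each of the 10 even-numbered plates held at least 1, with 14 on TA04, 13 on TA06, 12 on TA20 and 11 on TA18. Among odd-numbered plates, TA19 held 4 and TA01 held 2, and the other 8 held none. The share was 9.76% of 922 probes on even-numbered plates and 0.637% of 942 on odd-numbered ones. In single replicates the counts on even-numbered and odd-numbered plates were 80 and 8 in I, 96 and 4 in II, 78 and 8 in III, and 104 and 5 in IV. The bound of -3 and the division by plate number were chosen after the data had been seen. The share was 5.15% over the stretch and 3.01% over all 21295 probes. The same division by plate number gave 0.305% and 0.947% on TA64 to TA99 and 0.192% and 0.126% on the TB plates.

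The 10 lowest members were all on even-numbered plates and nearly level with each other. TA04A08 had -4.15, -4.53, -4.13 and -4.72 in replicates I to IV, a mean of -4.38 ± 0.29 (SD, n = 4). TA20H11 had -4.19, -4.51, -4.20 and -4.59, and TA20D08 had -4.23, -4.52, -4.11 and -4.46. The tenth, TA20H03, was at -4.15 ± 0.24, so the means of the 10 differed by less than the replicates of TA04A08 did. The lowest member of an odd-numbered plate was TA01A11, with -4.01, -3.95, -4.16 and -3.81. On TA03, TA07 and TA11 no probe was under -2; their lowest were TA03E07 at -1.48, TA07B12 at -1.32 and TA11B04 at -1.66.

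The even-numbered plates were also wider. The SD over the probes of a plate was 1.19 to 1.71 on even-numbered plates and 0.81 to 1.38 on odd-numbered ones, and in 10 of 10 consecutive pairs the even-numbered plate was the wider. The 90th percentiles overlapped far more, 0.67 to 1.58 on even-numbered and 1.16 to 1.61 on odd-numbered plates. The median of the even-numbered plates was -0.03, -0.11, -0.12 and -0.21 in replicates I to IV, against 0.32, 0.35, 0.28 and 0.40 on the odd-numbered plates, a difference of -0.45 ± 0.11 (SD, n = 4). Without the probes under -3 the medians were 0.05 ± 0.09 and 0.35 ± 0.05, a gap that had to narrow since 90 of the 96 probes left out were on even-numbered plates. On the TB plates, even-numbered plates were at 0.55 ± 0.02 and odd-numbered ones at 0.38 ± 0.05, a gap of the opposite sign, and on TA64 to TA99 the medians were -0.03 ± 0.09 and 0.01 ± 0.06. On even-numbered plates alone, 215 members (23.3%) were called above by over 0.5 and 313 (33.9%) below, and on odd-numbered plates alone the counts were 337 (35.8%) and 162 (17.2%), beside 28.1% and 30.6% of all probes.

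**Figure D3:**
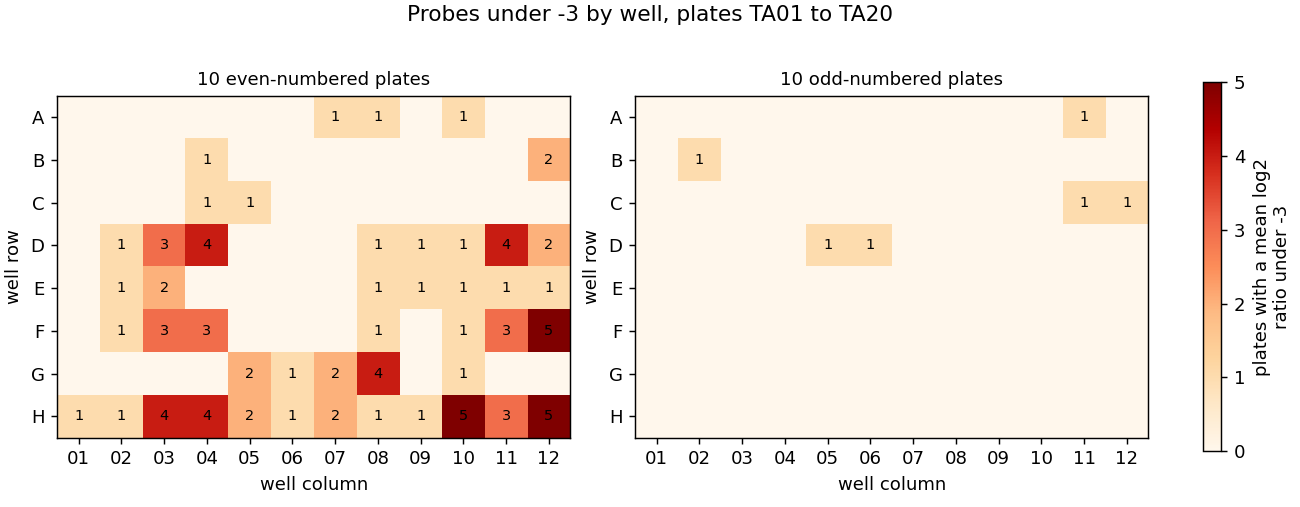
Number of plates, of 10 even-numbered (left) and 10 odd-numbered (right), with a mean log2 ratio under -3 in each well of the 96-well layout. On the even-numbered plates the counts gather in rows D, F and H and reach 5 plates in wells F12, H10 and H12; on the odd-numbered plates no well is counted more than once.

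On the first 5 even-numbered plates the deep probes came back in the same wells. TA02, TA04, TA06, TA08 and TA10 held 49 probes under -3, and 39 of them (79.6%) lay in rows D, F, G and H at columns 03, 04, 07, 08, 11 and 12. Those wells held 109 of the 464 probes of these plates (23.5%), and the rows and columns were picked after the deep probes had been seen in them. Well F12 was at -3.56 on TA04, -4.16 on TA06, -3.81 on TA08 and -3.62 on TA10, and its probe on TA02 had no value. Well H04 was at -4.03, -3.64, -3.91, -1.77 and -3.56 on TA02, TA04, TA06, TA08 and TA10. Well D03 was at -4.14, -3.72 and -3.48 on TA02, TA04 and TA06, but at 0.02 on TA10. In all, 8 wells were under -3 on at least 3 of these plates. These 8 wells had a median of -3.56 over 33 values on the 5 plates. On TA12, TA14, TA16, TA18 and TA20 it was 0.0002 over 40 values, of which 4 were under -3, the lowest at -4.15. On the odd-numbered plates it was 0.34 over 78 values, where the lowest was -2.33. The wells were picked for their low values, so these medians describe them only.

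The likeness was also seen when all shared wells, the deep ones included, were compared, and was much weaker without the probes under -3. The group of TA02, TA04, TA06, TA08 and TA10 was not set in advance. The same deep probes enter its correlations, which are therefore no separate support for the likeness. Well by well, the ratios of TA02, TA04, TA06, TA08 and TA10 correlated with each other in 10 of 10 pairs, at 0.29 to 0.62 with a mean of 0.49 (Pearson, across up to 96 wells that share plate position, not independent replicates). The pair of TA02 and TA04 and that of TA02 and TA06 both stood at 0.62. In single replicates the mean of the 10 pairs was 0.47, 0.50, 0.46 and 0.49. TA12 and TA14 formed a second like pair at 0.64, and TA20 was at 0.41 with TA12 and 0.32 with TA14. TA16 was at 0.08 with TA12 and at -0.08 with TA14, and TA18 was at -0.46 with TA12. Over all 45 pairs of even-numbered plates the mean was 0.125, from -0.46 to 0.64. Among odd-numbered plates the 45 pairs had a mean of -0.01 and ran from -0.48 to 0.30. A correlation over 0.4 was found in 9 of 45 even-numbered pairs and 0 of 45 odd-numbered ones. It was found in 1 of 630 pairs on TA64 to TA99, 11 of 4950 on the TB plates and 65 of 21098 (0.308%) among all plates outside the stretch. The pairs outside the stretch ran from -0.66 to 0.66, so single values as high as those above occur there too. Without the probes under -3 the 10 pairs of TA02 to TA10 had a mean of 0.16, from -0.05 to 0.43. The probes left out were chosen by their own low values, in wells these plates often shared, so a fall was built in.

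**Figure D4:**
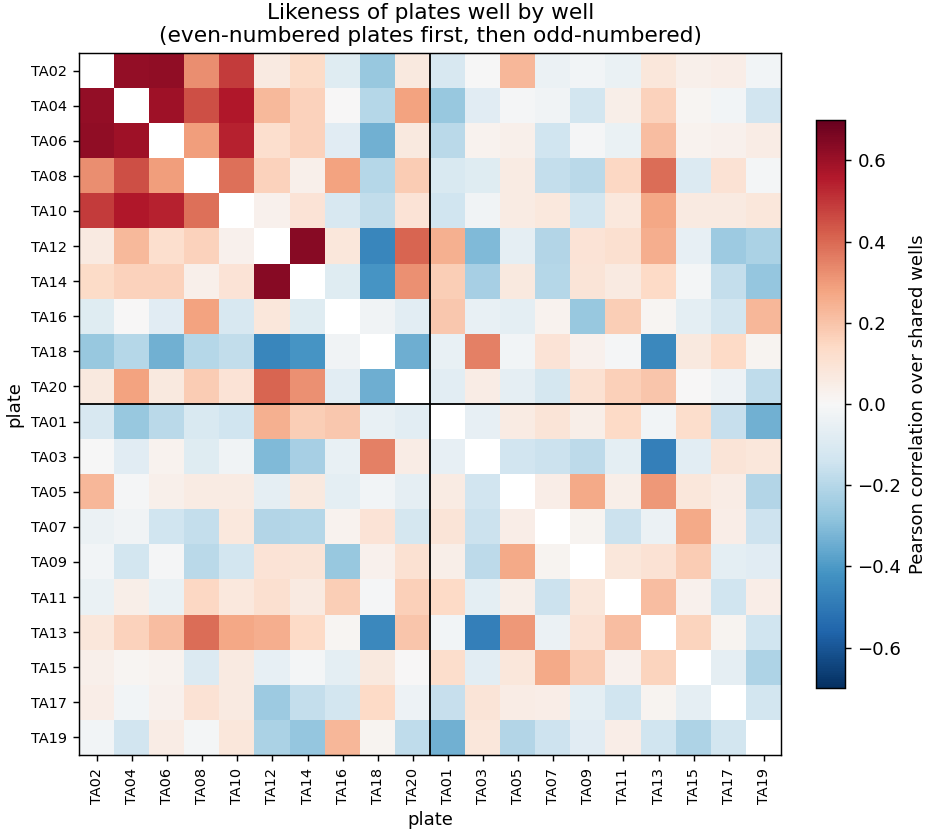
Pearson correlation of the mean log2 ratio between each pair of plates over the wells they share, with even-numbered plates first and odd-numbered plates after them. The block of TA02 to TA10 lies between 0.29 and 0.62, and TA12 with TA14 is at 0.64. All pairs of even-numbered plates lie between -0.46 and 0.64, and those of odd-numbered plates between -0.48 and 0.30.

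After centring, the deep probes of the even-numbered plates also had the replicates in nearly 1 order. In 88 of 90, both II and IV were lower than both I and III, and in 0 of 90 were both higher. Their medians in replicates I to IV were -3.47, -3.76, -3.50 and -3.82. The difference of II and IV from I and III was -0.34 at the median, with an SD of only 0.09 over these probes. The deposited medians over all probes were -0.69, -0.23, -0.76 and -0.33 in I to IV. Centring therefore lowered II and IV relative to I and III, by the same step at each probe. This step is larger than 0.34, so in the deposited values the median difference has the opposite sign, with II and IV higher. Which pair is the lower thus depends on the place of 0. The order was not counted probe by probe in the deposited values. The exceptions were TA06C05 and TA16D04, named after their values were seen. Of the 6 deep probes on odd-numbered plates, 2 had this order and 4 had II and IV higher, with a median difference of 0.25. Between -3 and -2, II and IV were lower at 50 of 56 probes (89.3%) on even-numbered plates and at 4 of 33 (12.1%) on odd-numbered plates. Between -2 and -1 the counts were 74 of 124 (59.7%) and 22 of 78 (28.2%), so the order was less regular at higher ratios. The order was shifted over all members too: the median difference was -0.22 on even-numbered plates, with II and IV lower at 54.8% of probes, and 0.08 on odd-numbered plates, with 29.8%. Its SD over all probes was 0.41 on even-numbered and 0.43 on odd-numbered plates.

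After the same centring, most deep probes elsewhere on the array had another order. Outside the stretch, 544 probes were under -3, and 137 of them (25.2%) had II and IV below I and III. Their median difference was 0.16, beside -0.34 for the deep probes of the even-numbered plates. The distance between these medians does not depend on the place of 0, but which pair is the lower does. In the deposited values II and IV were the higher pair at the median of both groups. On TA64 to TA99 the count was 3 of 21 and on the TB plates 0 of 15. Plate PD02, which belongs to a separate ID series, stood apart: all 20 of its probes under -3 had the order, with a median difference of -0.33. TA21, the plate next after the stretch, had it at 17 of 21. The replicate pairs were seen in these data, so the counts are descriptions without a test, and how the plates were made or printed was not tested.

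**Figure D5:**
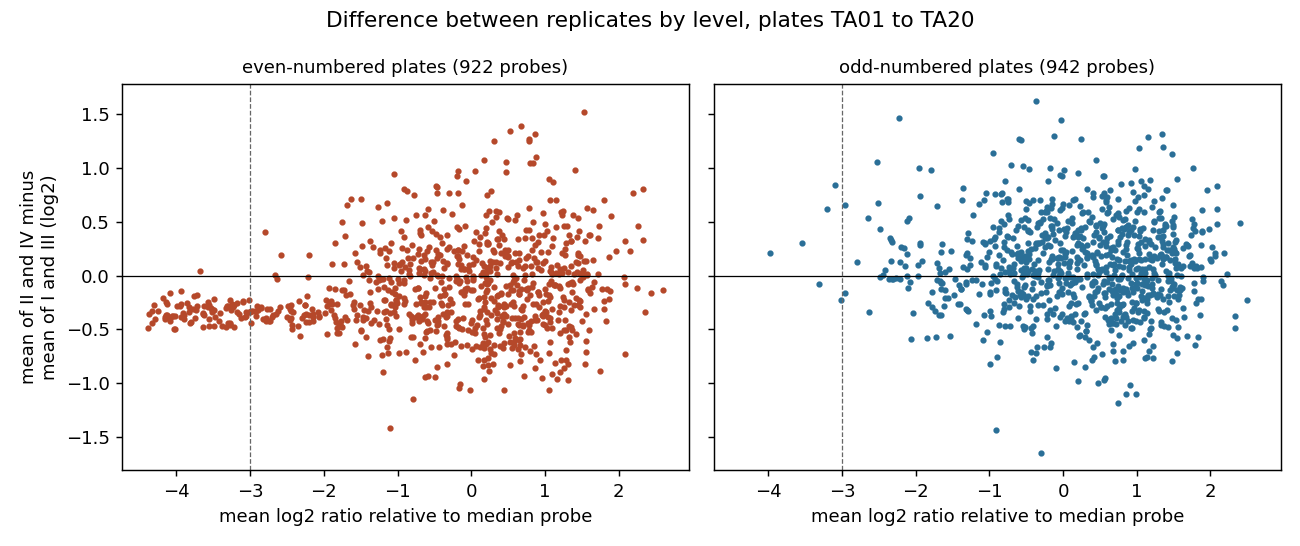
Mean of replicates II and IV minus mean of I and III against the mean log2 ratio of each probe, for even-numbered (left) and odd-numbered plates (right). Each replicate is centred on its median probe, which sets the place of 0. Left of the dashed line at -3, the 90 probes of the even-numbered plates form a narrow band around -0.34, while the 6 of the odd-numbered plates scatter on both sides of 0.

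Neighbouring wells were less alike on even-numbered plates. Probes 1 well apart correlated at 0.47 on even-numbered and 0.68 on odd-numbered plates (877 and 914 pairs), and at 2 wells the values were 0.21 and 0.45. Over the stretch the correlation was 0.56 at 1 well, beside 0.61 on TA64 to TA99 and 0.59 on the TB plates, where even-numbered and odd-numbered plates stood at 0.61 and 0.61 and at 0.60 and 0.58. By 20 wells it was -0.01 in the stretch. Of 1809 steps between wells 1 apart, 42 exceeded 4, and 40 of these lay within even-numbered plates. The largest led from TA06F12, at -4.16 ± 0.22 (SD, n = 4), to TA06G01, at 1.73 ± 0.10. The step from TA06D10, at 1.80 ± 0.20, to TA06D11, at -3.95 ± 0.19, came next. Among the 169 direct neighbours of probes under -3, 62 were under -3 as well and 47 were above 0.

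The border itself was set from these values. The last 6 probes of TA20 had a median of -3.73, and TA20H06 was the exception, with 1.92, 0.70, 1.38 and 0.68 in replicates I to IV. The first 6 probes of TA21 had a median of -4.17, from -4.30 to -3.47. Row H of TA20 as a whole was at -3.64 ± 0.22 (SD, n = 4), while the median of plate TA20 was -0.12 ± 0.08 and that of TA21 was -2.27 ± 0.06. Row H was low on some other even-numbered plates, with -3.03 on TA12, -2.38 on TA14, -1.58 on TA08, -1.33 on TA04 and -0.99 on TA06. It was above 0 on the rest, with 0.23 on TA02, 0.54 on TA10, 0.50 on TA16 and 1.07 on TA18. Whether row H of TA20 belongs with the low rows of these plates or with the block of TA21 was not tested. At the other end, the first 6 probes of TA01 ran from -1.09 to -0.36.

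A few members differed widely between replicates. TA02E01 had -1.06 in I but 1.42, 1.04 and 1.34 in II, III and IV, the largest range of all members. TA19B05 had 0.59, -1.01, 0.44 and -1.25 in replicates I to IV, and TA03G10 had -1.13, 0.35, -1.23 and 0.53. Both split along the like pairs. For these the sign depends on the replicate, and neither passed the test against the median probe. In most members the spread was small, as over the array: the SD over 4 replicates had a median of 0.21, beside 0.20 for all probes. In all 4 replicates 1580 members (84.8%) had 1 sign, beside 86.3% of all probes.

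The titles of I and II carry 1 number series, and another runs through those of III and IV. It is a division of the replicates by label, and the choice of members did not use it. When limma compared I and II with III and IV, 0 members passed an adjusted p of 0.05, beside 0% of all probes. At an unadjusted p of 0.05, 2 members passed (0.107%), beside 0.131% of all probes. The like pairs I with III and II with IV are each divided by this contrast, so their difference enters its residual. With these pairs as a term, 0 members and 9 of all probes passed the adjusted threshold, and 161 members (8.64%) passed the unadjusted one, close to the 7.65% of all probes.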

How the data were processed

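The deposited table holds 1 log2 ratio per probe and array, taken as log2 from the size of the values; how background and normalization were handled, the base and the direction are not stated in the labels or headers. The values deposited by the authors were read for 8 arrays, and the identical columns of each dye swap counted as 1 replicate (n = 4). Here each replicate was centred on its median over 21295 probes, without loess or quantile normalization. Ratios were tested across all probes with limma (version 3.58.1, R 4.3.3; functions lmFit and eBayes, and treat for a size over 0.5; two-sided, Benjamini-Hochberg, threshold 0.05). The fits were tried on simulated data with 4 independent values per probe. Those data lack the likeness of I with III and II with IV, so they cannot show its effect on the calls. Runs were consecutive wells with the same treat call, ended by a missing well. Plate pairs were compared over shared wells for plates with at least 60 values. Named probes were the 10 highest and lowest, the extremes of each plate, the 5 largest ranges and steps, the ends of the 5 longest runs of each sign and the 6 probes at each border. The wells D03, F12 and H04, probe TA07G08 and plate PD02 were named after their values were seen. The members, tests and lists were chosen with earlier results of these data known. Python 3.11.15, numpy 2.4.6 and pandas 2.3.3 were used elsewhere. Without scanner signals, precision can be judged only from the spread of the 4 replicates, in which I with III and II with IV were alike.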

Additional observations from a re-analysis of the deposited data

Results flagged for a closer look

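In 5 of 121 results (98 named probes, 20 plate medians and 3 medians of groups of plates), 1 replicate stood far from the other 3 by Dixon's criterion, which chance meets in about 1 of 20 groups. The gap to the nearest replicate, as a share of the whole range, was 0.849 for TA02E01, where replicate I was the low one. It was 0.885 for TA07G09 and 0.839 for TA11B04, with 1.08 and -1.15 in replicate III against 1.43 to 1.48 and -1.90 to -1.78 in the others. It was 0.851 for TA03E07, at -1.73 in replicate IV against -1.42 to -1.37, and 0.884 for the median of TA13, at 0.22 in IV against 0.05 to 0.07.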

How the results depend on the processing

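With no centring, 447 members were above and 191 above by over 0.5, the median was -0.39 and 0 plates lay above 0 in all 4 replicates; with 0 moved to the mean deposited 0, 523 were above, 256 above by over 0.5 and 719 below by over 0.5. A size of 1 left 236 above and 309 below. Even-numbered plates alone, chosen after the data were seen, gave 350 above and 420 below, 215 and 313 by over 0.5, and a median of -0.12; odd-numbered plates alone gave 487 and 283, 337 and 162, and a median of 0.34. As a mean over probes the level was -0.10, and with plates 01 to 21 the median was 0.054. Allowing 1 uncalled probe put 243 members in long high runs in place of 151. Leaving out 1 replicate gave 799 to 813 above, 671 to 685 below, 509 to 526 and 451 to 457 by over 0.5, a median of 0.10 to 0.13, 9 to 11 plates above 0, and 0 to 1 members between title-number sets (1 without II, where 1 replicate stood for its set). Quantile normalization and an adjusted p of 0.01 kept the 4 counts within 1.5 times. So did the pairs I with III and II with IV as random blocks, with a correlation of 0.73 within blocks. The blocks gave 762 above and 647 below, and 476 and 427 by over 0.5, each fewer than in the main fit. The 98 named probes shifted less than 1 SD under 490 of 490 alternatives, as leaving out 1 of 4 replicates always does for a mean. The random block could not be fitted for the title-number sets, where a fixed term was used. The cause was not tested.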
